A study of Bos taurus with 12 samples.

Results

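The 8 genes described here encode the enzymes that make and balance deoxynucleotides, the building blocks of DNA: TYMS, RRM1, RRM2, RRM2B, TK1, DTYMK, DCK and DUT. They were taken by gene name from the deposited expression table, where all 8 had a row among 18436 genes, and by the same names from the lists of m6A peaks. In those lists they had 2 of the 19739 peaks of the proliferating cells and 5 of the 20790 peaks of the differentiated cells. N6-methyladenosine (m6A) is a methyl mark on adenosines of mRNA, mapped here by immunoprecipitation (IP) of RNA fragments with an m6A antibody and comparison with the untreated input RNA.

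The samples were cultures of primary myoblasts from the longissimus dorsi muscle of newborn Qinchuan cattle. In the GM group the cells proliferated in growth medium with 20% fetal bovine serum to 80% confluence. In the DM group they were at 100% confluence after 4 days in differentiation medium with 2% horse serum, which lets myoblasts fuse into myotubes. Each group had 3 input and 3 IP libraries, and all cells were unmodified. The labels do not say that the 3 libraries of a group came from different animals, and the methods speak of a single newborn animal, so the p-values measure the spread between these libraries and not between animals. The difference in medium, serum, density and days in culture cannot be told apart within DM versus GM.

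Dividing cells need deoxynucleotides in quantity during S phase, whereas cells that have left the cycle need small amounts for repair and for mitochondrial DNA. Ribonucleotide reductase converts ribonucleotides to deoxynucleotides. Its large subunit is RRM1, and its small subunit is either RRM2, which is abundant in S phase, or RRM2B, the p53-inducible form that serves cells outside S phase. Thymidylate synthase (TYMS) methylates dUMP to dTMP, DUT hydrolyses dUTP to dUMP and so keeps uracil out of DNA, and DTYMK phosphorylates dTMP. TK1 and DCK are the cytosolic salvage kinases for thymidine and for deoxycytidine and purine deoxynucleosides. Myoblasts leave the cell cycle before they fuse, which is the setting of the comparison between GM and DM.

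Expression was given as FPKM, that is fragments per kilobase of exon scaled to the mapped fragments of the library, so levels of different genes can be set side by side. Genes were tested with limma on log2(FPKM + 1) where the mean over the 6 input libraries was at least 0.5 FPKM, and a gene was called at an unadjusted p below 0.05 with a change over 1.5-fold on that scale. Of 12302 genes tested, 1461 were called (11.9%), of which 858 (6.97% of those tested) were lower and 603 (4.90%) higher in DM. All 8 enzymes were tested. Of these, 6 fell in DM (TYMS, RRM1, RRM2, TK1, DTYMK and DUT), none rose, and RRM2B and DCK were not called. The median log2 fold change of the 8 genes was -0.86, against -0.05 over all genes tested.

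**Figure D1:**
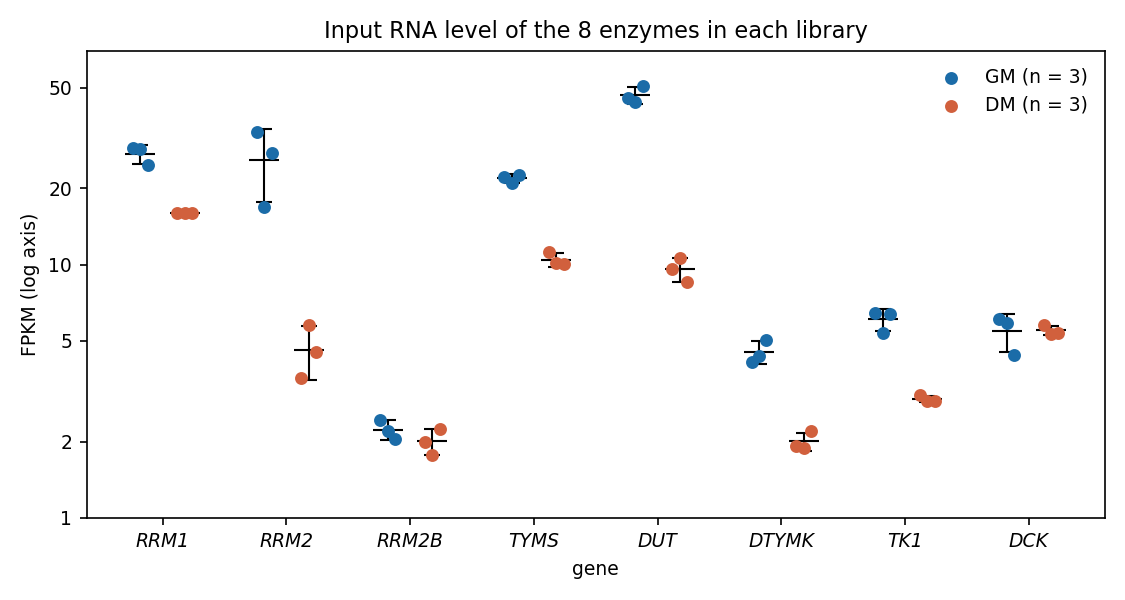
FPKM of the 8 enzymes (log axis) in each of the 3 GM (blue) and 3 DM (orange) input libraries, with the group mean and SD as black bars. The GM and DM points are apart for 6 genes and overlap for RRM2B and DCK; RRM2 has the widest spread in GM, from 17.0 to 33.4 FPKM.

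The subunits of ribonucleotide reductase did not change alike. RRM1 (chr15:50969950-51010523, minus strand, ARS-UCD1.2) was at 28.9, 28.6 and 24.7 FPKM in GM and at 16.0, 16.0 and 16.1 FPKM in DM. The DM libraries lay close together and below every GM library, and the mean fell 1.71-fold. On the log2 scale RRM1 fell by 0.73 (SE 0.07, limma adjusted p = 6.57e-05).

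RRM2 (chr11:87488674-87495961, minus strand), the S-phase small subunit, was at 33.4, 17.0 and 27.7 FPKM in GM and at 3.57, 5.75 and 4.51 FPKM in DM. The groups did not overlap, although the GM libraries spread widely, with a mean of 26.02 ± 8.35 FPKM (SD, n = 3). Its mean level was 5.64-fold lower in DM, and it fell by 2.24 on the log2 scale (SE 0.23, limma adjusted p = 0.000142). GM replicate 2, the lowest GM library for RRM2, was also the lowest for TYMS, TK1 and DUT, by smaller margins. Without that library the log2 fold change of RRM2 was -2.50.

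RRM2B (chr14:62133632-62171095, plus strand), the alternative small subunit, had the lowest level of the 8 genes in GM. It was at 2.44, 2.21 and 2.04 FPKM in GM and at 1.99, 1.77 and 2.25 FPKM in DM, and the groups overlapped. The log2 fold change was -0.10, with a 95% confidence interval from -0.31 to 0.10 (limma adjusted p = 0.368), so a change over 1.5-fold on that scale lay outside the interval.

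The balance between the small subunits also differed. The ratio of RRM2 to RRM2B FPKM was 13.7, 7.68 and 13.6 in GM and 1.79, 3.25 and 2.00 in DM. It did not overlap between groups and was 4.97-fold lower in DM as a ratio of geometric means. The exact two-sided permutation test over the 6 libraries gave p = 0.1, the smallest value that 3 libraries against 3 can give. RRM2 RNA remained more abundant than RRM2B RNA in all 3 DM libraries. RRM1 relative to the sum of both small subunits went the other way, from 0.807, 1.49 and 0.831 in GM to 2.88, 2.13 and 2.38 in DM (exact permutation p = 0.1, again the smallest possible), so the large subunit RNA was the more abundant one in every DM library.

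**Figure D2:**
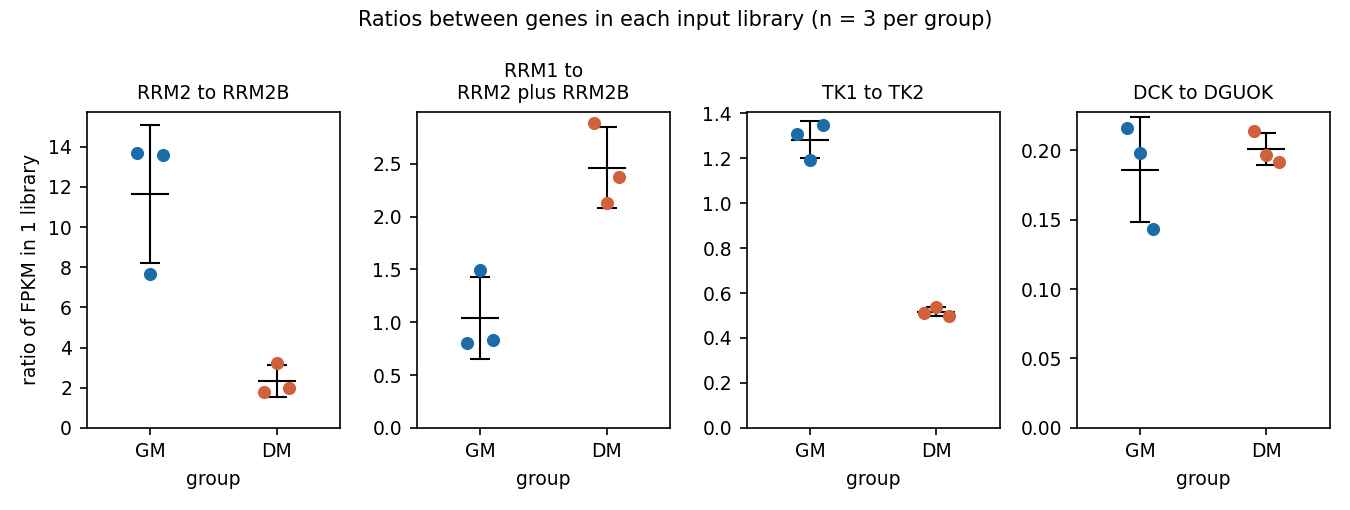
Ratio of FPKM between genes within each input library, for GM (blue) and DM (orange), with the group mean and SD (n = 3) as black bars; each panel has its own axis from 0. RRM2 to RRM2B and TK1 to TK2 were lower in all DM libraries, RRM1 to the small subunits was higher, and DCK to DGUOK overlapped between groups.

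The genes of the thymidylate route all fell, by different amounts. DUT (chr10:62059579-62071091, minus strand) was the most abundant of the 8 in GM, at 45.7, 44.0 and 50.9 FPKM, and was at 9.59, 10.6 and 8.55 FPKM in DM. Every DM library was far below every GM library, with a mean level 4.89-fold lower. DUT fell by 2.18 on the log2 scale (SE 0.09, limma adjusted p = 7.94e-07), and its change had a narrower interval than that of RRM2, from -2.38 to -1.98 against -2.77 to -1.70.

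TYMS (chr24:35553464-35564144, plus strand) was at 22.2, 21.0 and 22.7 FPKM in GM and at 11.2, 10.2 and 10.05 FPKM in DM. The replicates were tight in both groups, and the mean fell 2.09-fold. On the log2 scale TYMS fell by 1.00 (SE 0.06, limma adjusted p = 7.09e-06). DTYMK (chr3:120728099-120736657, minus strand), the next kinase in the route, was at 4.12, 4.37 and 5.03 FPKM in GM and at 1.91, 1.89 and 2.20 FPKM in DM. It too was lower in every DM library, by 2.25-fold in mean FPKM and by 0.87 on the log2 scale of FPKM + 1 (limma adjusted p = 9.08e-05), a scale that understates the change of genes at this low level.

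The salvage kinases differed from each other. TK1 (chr19:53977498-53991174, plus strand) was at 6.44, 5.39 and 6.41 FPKM in GM and at 3.05, 2.90 and 2.89 FPKM in DM. The groups did not overlap, and the mean was 2.06-fold lower in DM (log2 fold change -0.84, SE 0.08, limma adjusted p = 6.94e-05). DCK (chr6:86319005-86345274, plus strand) was at 6.10, 5.87 and 4.40 FPKM in GM and at 5.79, 5.35 and 5.38 FPKM in DM. The DM values lay within the range of the GM values. Its log2 fold change was 0.02, with a 95% confidence interval from -0.22 to 0.26 (limma adjusted p = 0.896).

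**Figure D3:**
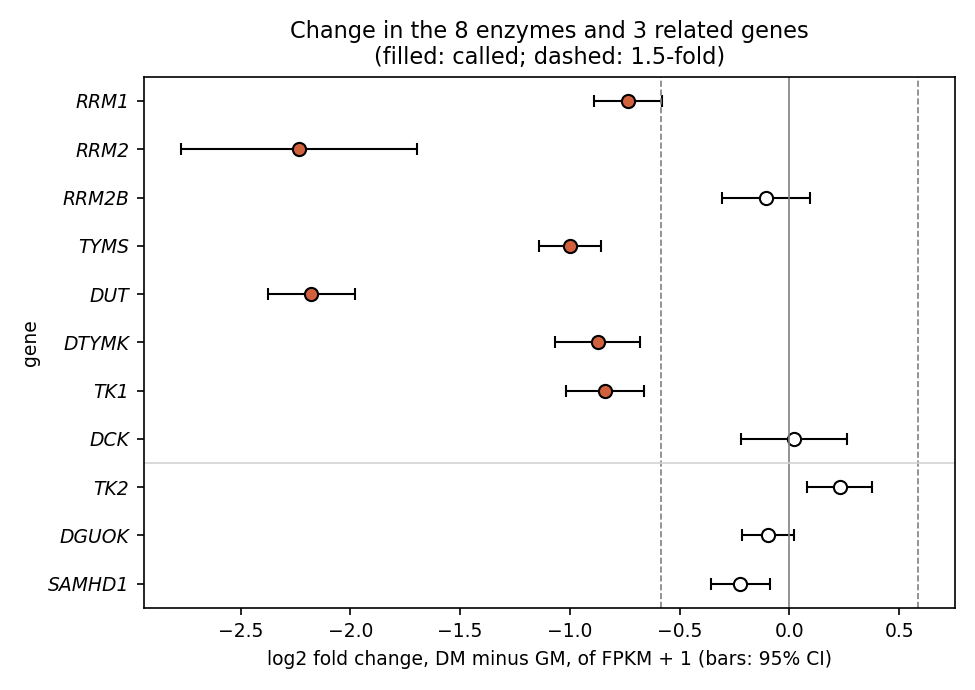
Log2 fold change of FPKM + 1, DM minus GM, with 95% confidence intervals from limma (n = 3 per group), for the 8 enzymes (above the grey line) and 3 related genes; filled points were called and dashed lines mark 1.5-fold. DUT and RRM2 lie near -2, TYMS, DTYMK, TK1 and RRM1 nearer to -1, and the other 5 genes between -0.22 and 0.23.

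The mitochondrial counterparts of the cytosolic kinases were not called. TK2, the mitochondrial thymidine kinase, was at 4.93, 4.52 and 4.75 FPKM in GM and at 5.96, 5.40 and 5.81 FPKM in DM. Its log2 fold change was 0.23 (SE 0.06, limma adjusted p = 0.0205), under the 1.5-fold limit, and it was therefore not called. TK1 exceeded TK2 in every GM library, with ratios of 1.31, 1.19 and 1.35, and was below it in every DM library, with ratios of 0.512, 0.537 and 0.498 (exact permutation p = 0.1, the smallest possible). DGUOK, the mitochondrial deoxyguanosine kinase, was at 28.2 to 30.6 FPKM in GM and 27.1 to 28.1 FPKM in DM, so that the groups did not overlap by a narrow margin, and was not called (log2 fold change -0.10, limma adjusted p = 0.159). The ratio of DCK to DGUOK overlapped between the groups, at 0.186 ± 0.04 in GM and 0.201 ± 0.01 in DM (SD, n = 3; exact permutation p = 0.9).

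SAMHD1, which hydrolyses deoxynucleoside triphosphates, was at 8.75, 8.51 and 8.10 FPKM in GM and at 7.30, 6.80 and 7.18 FPKM in DM. The groups did not overlap, and its log2 fold change of -0.22 (limma adjusted p = 0.0151) was under the 1.5-fold limit.

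The order of the 8 levels changed between the groups. In GM, DUT was highest, at 46.9 ± 3.60 FPKM (SD, n = 3), followed by RRM1, RRM2 and TYMS, whose neighbours in the order overlapped in range, then by TK1, DCK and DTYMK, which again overlapped with their neighbours, and last by RRM2B. In DM, RRM1 was highest at 16.0 ± 0.03 FPKM, followed by TYMS and DUT, which overlapped, by DCK and RRM2, which overlapped, by TK1, and by RRM2B and DTYMK, which overlapped at 2.01 and 2.00 FPKM. Between TYMS and TK1 in the GM order lay a gap, from 21.0 FPKM in the lowest TYMS library to 6.44 FPKM in the highest TK1 library.

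Of the 28 possible ratios between 2 of the 8 genes, 22 did not overlap between the GM and DM libraries. The same held for 55.6% of the ratios between any 2 tested genes above 0 FPKM in every library. The 6 that overlapped were RRM2 to DUT, RRM2B to DCK, TYMS to TK1, TYMS to DTYMK, TK1 to DTYMK and RRM1 to TK1. These ratios are free of the size of a library, and they share genes, so the 28 are not independent. The changes of RRM2 and DUT, the largest of the 8, differed by a factor of 1.13 in this measure, and DUT relative to TYMS was 2.34-fold lower in DM than in GM.

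Of all genes tested, 33.0% had every DM library below every GM library, as had the 6 called enzymes. With libraries rescaled to equal sums (TPM), the median over all genes moved from -0.05 to 0.06 and the share of called genes that were higher in DM from 41.3% to 55.1%, and the same number of the enzymes, 6, was called, all lower. At a limit of 2-fold, 3 of the 8 were called, namely TYMS, RRM2 and DUT, of which TYMS stood at 2.00-fold on the log2(FPKM + 1) scale.

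The fall of the 6 enzymes went with that of dividing-cell markers. All 10 proliferation markers tested fell (median change -1.97 on the log2 scale), and their summed level was 142 to 153 FPKM in GM and 26.2 to 30.7 FPKM in DM. MKI67, the proliferation antigen, was at 18.7, 18.3 and 16.5 FPKM in GM and at 0.772, 1.1998 and 0.712 FPKM in DM (log2 fold change -3.32, limma adjusted p = 2.93e-07). The replication factors PCNA (-0.79) and MCM2 (-0.83) changed by amounts near those of RRM1, TK1 and DTYMK. They had the smallest changes of the 10 markers, and all the others fell further. In bulk RNA, fewer dividing cells and less RNA per cell cannot be told apart.

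Markers of other cells were read in the same libraries. Of 15 muscle markers, 8 rose, 4 fell and the others were not called. MYH3, the embryonic myosin heavy chain, was already at 270 to 275 FPKM in GM and at 642 to 670 FPKM in DM. PAX7, the satellite cell factor, fell from 0.979 to 1.17 FPKM in GM to 0.04 to 0.10 FPKM in DM. ACTA1, the skeletal muscle actin, also fell, from 87.3 to 128 FPKM in GM to 57.3 to 76.9 FPKM in DM (log2 fold change -0.64, limma adjusted p = 0.011). The 8 fibroblast markers summed to 10323 to 10465 FPKM in GM and 11728 to 12308 FPKM in DM, of which COL1A1, the type I collagen chain, made up 6634 to 7584 FPKM. One of the 8, FAP, was called (higher in DM). The 5 endothelial markers with a row summed to less than 1 FPKM in every library, the 5 macrophage and leukocyte markers to 1.07 to 2.06 FPKM, and the 6 adipocyte markers to 2.35 to 3.16 FPKM, of which 1, PPARG, was called (lower in DM). The part of the fibroblast markers in the enzymes' results was not tested.

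In the wider pathway lists few genes were called, 1 or 2 in each, to be read against the 6.97% lower and 4.90% higher among all genes tested. Of 13 tested genes of deoxynucleotide salvage and clearance, 2 fell and none rose (median log2 fold change -0.20). They were NUDT1, which removes oxidised purine nucleotides, at 7.60, 5.88 and 9.93 FPKM in GM and 3.47, 3.39 and 4.25 FPKM in DM, and UPP1, the uridine phosphorylase, at 2.43, 2.49 and 2.06 FPKM in GM and 0.232, 0.368 and 0.265 FPKM in DM. NUDT1 fell by 0.88 and UPP1 by 1.37 on the log2 scale of FPKM + 1 (limma adjusted p = 0.00253 and 9.47e-06). In mean FPKM, NUDT1 was 2.11-fold and UPP1 8.08-fold lower in DM, so that scale understates the change of UPP1 most. Both genes had every DM library below every GM library. NT5M, a mitochondrial deoxyribonucleotidase, was at 3.63, 3.52 and 3.85 FPKM in GM and 5.96, 6.77 and 4.95 FPKM in DM. Its log2 fold change of 0.56 (limma adjusted p = 0.00248) was just under the 1.5-fold limit, which it passed under both other scalings, and it is named because of these values.

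Among 20 tested nucleotide kinases and enzymes of de novo pyrimidine synthesis, 1 fell and none rose (median -0.16). It was NME2, a nucleoside diphosphate kinase, at 305, 300.1 and 360 FPKM in GM and 207, 223 and 200.4 FPKM in DM (log2 fold change -0.61, limma adjusted p = 0.000489). Its change stood near the 1.5-fold limit, and it was not called under both other scalings (-0.54 and -0.48) or without GM replicate 3 (-0.52) or DM replicate 3 (-0.57). Of 20 tested folate cycle genes, 1 fell and none rose (median -0.00): SHMT2, the mitochondrial serine hydroxymethyltransferase, at 176, 175 and 175 FPKM in GM and 108, 117 and 113 FPKM in DM. Its log2 fold change was -0.64 (limma adjusted p = 2.07e-05), and it also was not called under both other scalings (-0.57 and -0.51).

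Of 15 tested purine genes, 1 rose and none fell (median -0.22). This was ADK, adenosine kinase, which went from 23.8, 23.0 and 19.4 FPKM in GM to 41.2, 42.6 and 41.4 FPKM in DM (log2 fold change 0.90, limma adjusted p = 4.59e-05). Among 24 tested targets of p53, the factor that also induces RRM2B, 1 rose and none fell (median 0.06). It was MDM2, the ubiquitin ligase of p53, at 20.6, 23.2 and 19.4 FPKM in GM and 34.2, 29.7 and 34.1 FPKM in DM (log2 fold change 0.61, limma adjusted p = 0.000549). It was not called without GM replicate 3, DM replicate 1 or DM replicate 3 (0.56, 0.58 and 0.58), and RRM2B itself was at -0.10. Under both other scalings a further p53 target, ZMAT3, was called higher, as was PRPSAP1 of the purine list with TPM; both were picked out for that.

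**Figure D4:**
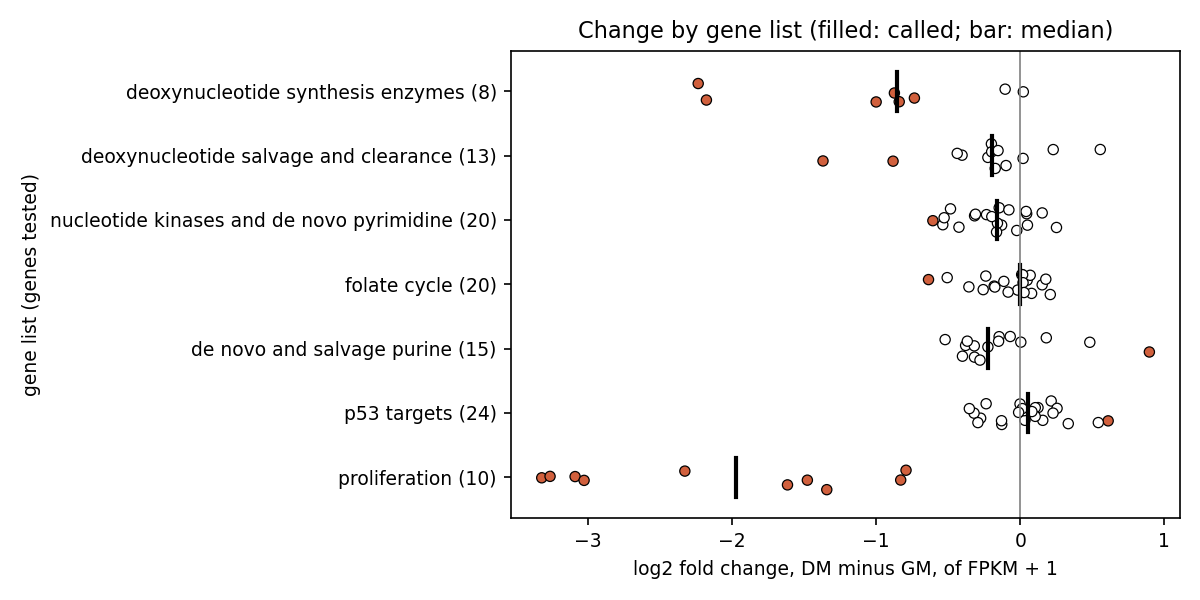
Log2 fold change of FPKM + 1, DM minus GM, for each tested gene of the enzyme list, 5 related pathway lists and the proliferation markers, with the number of genes tested in parentheses; filled points were called and black bars are medians. The 8 enzymes have their median at -0.86 and the 10 proliferation markers at -1.97, while the medians of the 5 pathway lists lie between -0.22 and 0.06.

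Likeness over the 6 input libraries was described by Pearson's r of log2(FPKM + 1), with the 8 enzymes left out as partners. The 6 libraries fall in 2 groups and are shared by all genes, so genes that differ between GM and DM reach high r together. For DUT, 660 genes had r of at least 0.98, led by PFN2 (1.00), ESYT1 (1.00) and UBE2C (0.999). For TYMS there were 550, led by HMGA1 (0.999), RPS13 (0.999) and LIMD2 (0.999), and for RRM1 there were 535, with OGN and DNMT1 (each 1.00) among the first. DTYMK had 408 such genes, led by CADM1, SMARCB1 and DDX39A (each 0.999), and TK1 had 345, led by PARP1 (0.999), GRPEL1 (0.998) and PDIA5 (0.998).

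RRM2 had 101 genes at that level, fewer than the other called enzymes, led by MAGEF1 (0.997), CCDC25 (0.997) and JUN (0.996). The genes that were not called had almost none: RRM2B had 2, with RF00068 (0.992), ENSBTAG00000052913 (0.983) and CCDC51 (0.9796) first, and DCK had 4, led by RF02142 (0.990), VRK2 (0.988) and USP47 (0.987).

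The m6A maps were given as 1 list of peaks per group, made from pooled libraries, so each peak has a single fold enrichment of IP over input and no replicate check or test. In the GM list 2 of the 8 enzymes had a peak, RRM1 and TK1, while 70.9% of all genes tested had one. In the DM list 5 of the 8 had a peak, RRM1, TK1, TYMS, DUT and RRM2B, against 78.7% of genes tested. The 3 enzymes with a peak in the DM list only were TYMS, DUT and RRM2B, where 10.1% of genes tested were of this kind. RRM2, DTYMK and DCK had no listed peak in either group, as had 19.0% of genes tested. Absence from a list says that no peak passed the authors' threshold. The study's paper lists the reads of each library, and the peaks were not related to them here.

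RRM1 had a peak in the 3′ UTR in both lists. In GM it was chr15:50970039-50970188, of 150 nt, 89 nt before the annotated end of the gene, with a fold enrichment of 2.06. In DM it was chr15:50969950-50970396, of 447 nt, which reached the gene end and held the whole GM peak, with a fold enrichment of 3.77. The DM value was thus 1.83 times the GM value, while the RNA level was 1.71-fold lower. The median over all peaks was 3.27 in GM and 3.38 in DM, so RRM1 went from below to above the middle of its list.

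TK1 had a 3′ UTR peak in both lists and changed the other way. In GM it was chr19:53990667-53991174, of 508 nt up to the gene end, with a fold enrichment of 3.52. In DM it was chr19:53990906-53991174, of 269 nt, within the GM peak, with a fold enrichment of 1.90 and a false discovery rate of 0.00251, against 2.51e-13 in GM. The GM value was 1.85 times the DM value, and TK1 RNA was 2.06-fold lower in DM.

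**Figure D5:**
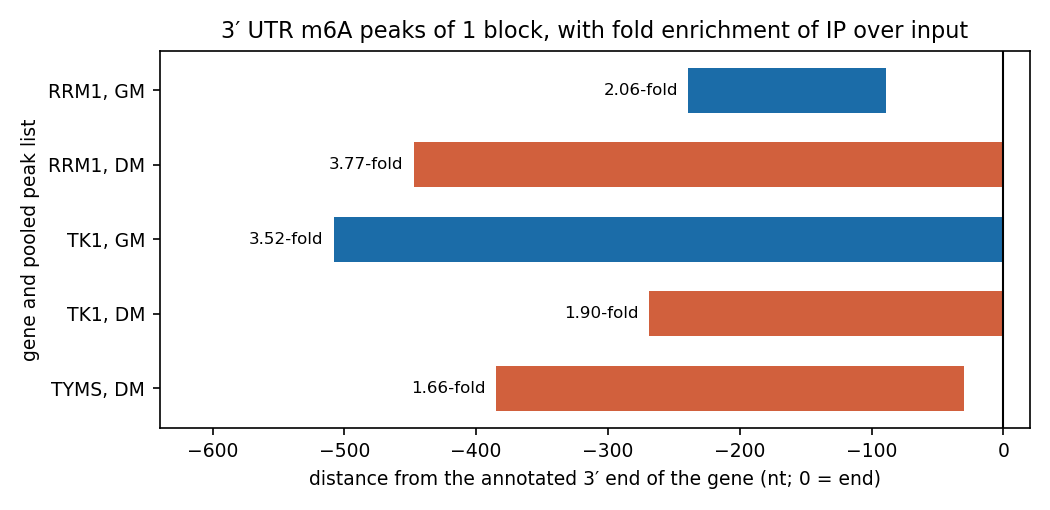
Extent of the 3′ UTR m6A peaks of RRM1, TK1 and TYMS in the pooled GM (blue) and DM (orange) lists, as distance in nt from the annotated 3′ end of the gene, with the fold enrichment of IP over input beside each bar. The DM peak of RRM1 is longer than the GM peak (447 against 150 nt), that of TK1 shorter (269 against 508 nt), and TYMS has a DM peak only.

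Over all genes, 10239 pairs of 1 GM and 1 DM peak overlapped, and 25.0% of these changed by more than 1.5-fold, 14.2% higher and 10.8% lower in DM. The RRM1 pair was among the higher and the TK1 pair among the lower ones. Since the peaks of a pair differed in length, their fold enrichments refer to different stretches of RNA: the GM peak of RRM1 covers 33.6% of the DM peak, and the DM peak of TK1 covers 52.95% of the GM peak. With peaks at a false discovery rate under 0.001, or at a fold enrichment of at least 2, only the RRM1 pair was left, when each peak had to share at least 50% of its length only the TK1 pair, and neither changed by more than 2-fold.

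The peaks listed in DM only differed in strength. DUT had one at chr10:62059579-62060678 in the 3′ UTR, made of 3 blocks with 240 nt in all, which reached the gene end and had a fold enrichment of 2.94 at a false discovery rate of 5.01e-11. It was listed in the group where DUT RNA was 4.89-fold lower. The TYMS peak, chr24:35563760-35564114, of 355 nt and 30 nt before the gene end, was weak, with a fold enrichment of 1.66, below which 14.4% of the DM list lay, and a false discovery rate of 0.00110.

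RRM2B had the only peak of the 8 enzymes that was not annotated to a 3′ UTR. It was chr14:62133632-62133871, of 240 nt from the first annotated base of the gene, in the 5′ UTR. Its fold enrichment of 12.8 was high, with 4.41% of the DM list above it, and its false discovery rate of 0.00417 was modest, with 73.4% of the list below it, for a gene at 2.01 FPKM. At a false discovery rate under 0.001, 2 enzymes kept a DM peak, RRM1 and DUT, the same number as had one in GM.

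The related genes differed in the same lists. DGUOK had a 3′ UTR peak in both, with a fold enrichment of 1.71 in GM and 2.47 in DM. TK2 had 3 entries in the GM list, with fold enrichments of 4.90 to 8.71, and 6 in the DM list, at 1.32 to 3.55. Some TK2 entries of a list overlap each other. The DM entry chr18:34231113-34231233 lies within chr18:34231018-34231257, both at 3.5-fold. The counts of 3 and 6 are thus not counts of separate sites. The false discovery rates of the TK2 peaks reached 0.130 in GM and 0.0513 in DM. SAMHD1 had no listed peak. Of the 13 tested genes of salvage and clearance, 9 had a GM peak and 10 a DM peak, and of the 20 folate cycle genes 11 and 15. Among all genes tested the shares were 70.9% in GM and 78.7% in DM.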

How the data were processed

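Input and m6A IP libraries (3 of each per group) were made from poly(A) RNA by a strand-specific dUTP method. Expression values were deposited as FPKM: the authors trimmed reads, aligned them with HISAT2 to ARS-UCD1.2 and quantified them with StringTie. Peak lists were made by the authors with exomePeak on pooled libraries of a group and annotated with ChIPseeker; the deposited columns used were the fold enrichment (a ratio of IP over input), the p-value and log10 values of the p-value and false discovery rate. Tool versions are not given in the sources used here. The study tested read counts; the files hold FPKM, so limma on the log scale replaced its count test, with the study's limits (p below 0.05, 1.5-fold).

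The 6 input libraries were fitted with limma 3.58.1 (R 4.3.3), with moderated variances and a variance trend, on log2(FPKM + 1) where a gene averaged 0.5 FPKM or more, and p-values were adjusted by Benjamini-Hochberg over all 12302 genes. FPKM sums were 386436 to 434458 per library with 12155 to 12303 genes above 0.5 FPKM. Reads per library are listed in the study's paper and not in the deposited data, and no counting interval was given. Ratios within a library were compared by exact two-sided permutation (scipy 1.17.1). A peak pair was exactly 1 GM and 1 DM peak on the same strand whose exon blocks overlapped by at least 1 base. The fit and the pairing were tested on simulated data. Genes named were all 8 enzymes, called genes of the pathway lists (at most 6 per direction), TK2, DGUOK, SAMHD1, at most 3 markers of each list, and for likeness the 3 genes with the highest r. TK2 was named through the NCBI gene ID in its row, matched to RefSeq (ARS-UCD2.0), as were 537 rows. List genes without a row were not analysed here. Sequences and motifs were not used here, and some named genes are not reported here. The enzymes and lists were chosen with earlier results of these data known. Alternatives were another pseudocount, filters, scalings, limits, the replicate number as a block, each library left out, and stricter peaks.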

Additional observations from a re-analysis of the deposited data

How the results depend on the processing

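The 6 calls among the enzymes held under every alternative except the 2-fold limit, which left 3 of them and 507 of 1461 genes, with 1 gene of salvage and clearance and 0 of the other 4 pathway lists. Leaving out 1 library at a time gave 1480 to 1521 genes and 6 enzymes. The pathway counts are small and less stable: with 0.5 FPKM required in all libraries salvage and clearance had 1; with median-of-ratios scaling or TPM the nucleotide kinases and the folate cycle had 0 and the p53 targets 2 and salvage and clearance 3; with TPM the purine list had 2. Without single libraries the kinases ranged from 0 to 2, the p53 targets from 0 to 2 and the purine list from 1 to 2. A pseudocount of 0.1 gave 2014 genes. Of the uncalled values, RRM2B, TK2 and SAMHD1 kept their sign and DGUOK and DCK did not: DGUOK was at 0.0228 with TPM, and without single libraries DCK ranged from -0.10 to 0.0948 and the log2 ratio of DCK to DGUOK from -0.047 to 0.25. The log2 ratio of RRM2 to RRM2B ranged from -2.59 to -2.13. Of the 2 enzyme peak pairs changed, 1 was left with a false discovery rate under 0.001, 1 with a fold enrichment of at least 2, 1 with the stricter overlap and 0 at the 2-fold limit. Same-numbered GM and DM libraries did not deviate together (r = -0.08, -0.12 and -0.21). With 3 libraries per group, these values cannot show whether libraries of the same number shared a culture or batch. The replicate block gave 1473 genes and 6 enzymes, changed no pathway count, and gave -2.31 for the log2 ratio of RRM2 to RRM2B. Read numbers of each library are listed in the study's paper and not in the deposited data used here. What an absent peak shows was not related to them.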
